A study of Homo sapiens with 12 samples.

Results

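The 41 genes described here were the transcription factors and target genes of the integrated stress response together with the chaperones and proteases of the mitochondrial matrix and inner membrane. They were chosen by name out of 58735 genes in a table of FPKM, a level per transcript length and library size, and each name had a single identifier. RNA sequencing of poly(A)-selected libraries was done in NCM460 cells, a human intestinal epithelial line derived from normal colon, in 4 groups of 3 libraries. One group was kept in medium and one received TNF-α, an inflammatory cytokine. The labels give the third as TNF-α+Bufotenidine, the quaternary ammonium derivative of bufotenine that the study calls 5-OH-TMT. In the fourth group HTRA2, a serine protease of the mitochondrial intermembrane space, was knocked down with siRNA under TNF-α. The labels name the first 3 groups wild type and give no siRNA for them, and the sources differ on whether the TNF-α comparator was transfected, so siRNA transfection and loss of HTRA2 cannot be told apart. It is not stated whether the knockdown libraries hold 1 siRNA or several, doses and times are not in the labels, and nothing says that libraries of a group came from separate cultures, so that p-values measure only the spread between these libraries, which may be technical. The comparisons ask whether loss of HTRA2, or exposure to the compound, changed the expression of ATF4 targets or of mitochondrial chaperones and proteases.

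In the integrated stress response, kinases that sense different kinds of stress phosphorylate the translation factor eIF2, which lowers general protein synthesis while the ATF4 mRNA is translated more. ATF4 then induces genes for amino acid synthesis and uptake, tRNA charging and feedback control, often through a composite C/EBP-ATF response element, and the ATF4 protein can rise without a rise of its mRNA. Mitochondrial stress can reach this pathway through the kinase HRI (EIF2AK1), and a separate mitochondrial unfolded protein response is usually followed through the matrix chaperones HSPD1, HSPE1 and HSPA9 and the proteases LONP1 and CLPP.

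Promoter sequence was available for 33 of the 41 genes in RefSeq (build GRCh38.p14), as windows from 250 bases before to 50 bases after an annotated transcript start. NUPR1, PSPH, SHMT2, ALDH1L2, SLC7A11, YARS, CLPP and YME1L1 were not among them. The core of the C/EBP-ATF response element, TGATGNAA on either strand, was found in 10 of the 33 genes (30.3%) and in 1217 of 27305 genes of the whole set (4.46%). The 10 genes were ATF3, CEBPG, CHAC1, ASNS, SLC3A2, SLC1A5, AARS, GARS, NARS and MARS, and no mitochondrial chaperone or protease was among them. The full cAMP response element, TGACGTCA, was found in 1 of the 33 genes, PPP1R15A (3.03%), and in 2.25% of all genes. The match of SLC3A2, whose RNA passed the test below, lay after the transcript start, with its first letter at 38, and is not shown. ASNS is a much studied target, but its RNA was near the detection limit. Stretches around the match are shown for ASNS and for ATF3, CHAC1, SLC1A5, GARS and PPP1R15A, whose RNA passed in at least 1 comparison below. They lie at chr1:212565200-212565239 (ATF3, plus strand), chr15:40953246-40953285 (CHAC1, plus), chr19:46784888-46784927 (SLC1A5, minus), chr7:30594829-30594868 (GARS, plus), chr7:97872453-97872492 (ASNS, minus) and chr19:48872347-48872386 (PPP1R15A, plus). The capitals mark the 8 matching letters, which read as the reverse complement in CHAC1 and GARS, and counting from the transcript start their first letters stood at −191 (ATF3), −209 (CHAC1), −97 (SLC1A5), −33 (GARS), −68 (ASNS) and −58 (PPP1R15A).
ATF3: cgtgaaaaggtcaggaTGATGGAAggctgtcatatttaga
CHAC1: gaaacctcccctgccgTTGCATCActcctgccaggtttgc
SLC1A5: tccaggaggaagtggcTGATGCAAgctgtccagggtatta
GARS: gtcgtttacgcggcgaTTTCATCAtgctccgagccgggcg
ASNS: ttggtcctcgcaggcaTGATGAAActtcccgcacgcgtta
PPP1R15A: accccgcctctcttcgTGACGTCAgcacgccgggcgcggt
A match is a run of letters and not a tested binding site.

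HSPD1 and HSPE1, which encode the 2 parts of the matrix chaperonin, lie head to head on chromosome 2 and share 1 promoter region, shown because both RNAs fell with HTRA2 knockdown. The HSPD1 transcript starts at position 197500274 and runs on the minus strand, and the HSPE1 transcript starts at 197500379 and runs on the plus strand. The 104 bases between the starts, chr2:197500275-197500378 on the plus strand, had a GC content of 74.0% and held neither response element.
HSPD1-HSPE1: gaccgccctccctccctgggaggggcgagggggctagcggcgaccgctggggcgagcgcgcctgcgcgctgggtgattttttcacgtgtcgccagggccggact
A heat shock element core, GAANNTTC, chosen after the expression values were seen, was found in 4 of the 33 genes (12.1%) and in 8.21% of all genes. The 4 were HSPD1, GARS, NARS and ASNS, and in HSPD1 the match (GAAAGTTC) stood at −240 from the start of a second annotated transcript, inside the gene.

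The libraries held 31008429 to 37624399 reads on genes. HTRA2 itself stood at 7.44, 7.18 and 7.22 FPKM in the knockdown libraries and at 15.4, 14.0 and 14.2 in those with TNF-α alone. The groups did not overlap and the log2 fold change was −0.98 (SE, the standard error, 0.087, limma adjusted p = 2.8e-05). The other libraries were at 13.3 to 17.2 in medium and 14.8 to 15.5 with Bufotenidine. In RNA from whole cultures, fewer cells of a kind and less RNA per cell cannot be told apart. Of 10 colonic epithelial markers, EPCAM, CDH1, KRT8 and KRT18 were high in every library (at least 53.3 FPKM) and KRT19 was at 1.91 to 4.35, while CDX2 was at 0 in all 12 libraries and VIL1, KRT20, LGALS4 and MUC2 were at or near 0. The summed level of markers of other cells was 3.10 to 3.86 FPKM in the knockdown libraries and 1.17 to 1.94 in the others, with CD3E at 0 throughout. Most of that sum came from 1 fibroblast marker, at 0.974 to 3.21 FPKM over the 12 libraries, while each other marker of the list stayed at or below 0.727. The part of these markers in the results was not tested. Knockdown library 2 stood apart from the other 2 of its group, with 2.95% of reads from mitochondrial genes against 3.69% to 4.68% in the other 11 libraries, and values that moved by over 1.5 times or lost their call without it are given both ways where the gene is described in full.

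Levels of the 41 genes covered a wide range. SLC7A5, an amino acid transporter, had the highest mean over the 12 libraries (672 FPKM), followed by SLC3A2 (226), DDIT4 (213), ATF4 (172), CEBPB (158) and HSPD1 (129). ASNS, asparagine synthetase, was at 0.0893 to 0.307 FPKM (13 to 51 reads) in all 12 libraries, and NUPR1 (2 to 38 reads) and ALDH1L2 (1 to 19 reads) were lower still. These 2 fell under the filter of a mean of at least 0.1 FPKM, so that 39 of the 41 genes were among the 18079 tested. The median of the 39 mean levels was 29.9 FPKM, against 2.19 over all genes tested. Changes are log2 fold changes of FPKM + 0.1 from limma, which understate the change of low genes, and a gene passed the test at an adjusted p (Benjamini-Hochberg, over the 18079 genes) under 0.05.

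**Figure D1:**
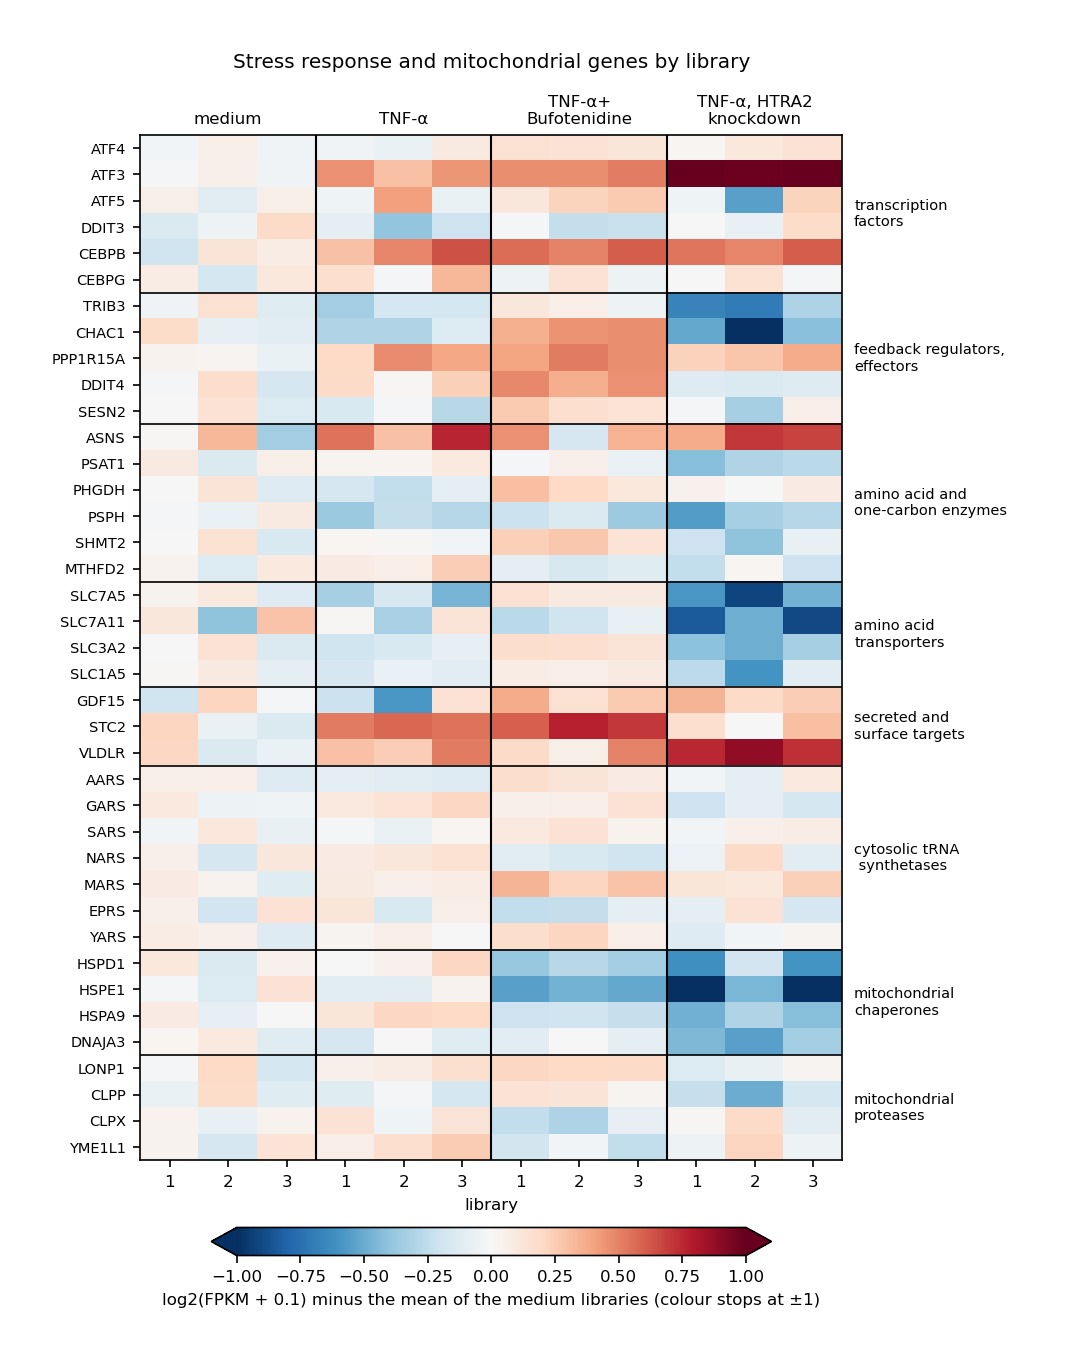
Heat map of the 39 tested genes (rows, grouped by role) in the 12 libraries (columns, 3 per group). Colour gives log2(FPKM + 0.1) minus the mean of the medium libraries and stops at 1 in either direction. The rows of HSPD1, HSPE1 and HSPA9 are blue with Bufotenidine and with the knockdown, while CHAC1 and SLC7A5 are red or pale with Bufotenidine and blue with the knockdown.

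With HTRA2 knocked down, 1 stress response transcription factor rose and most of the genes that changed fell. Against TNF-α, 12 of the 39 genes passed the test, 1 higher (ATF3) and 11 lower, where 17.4% of all genes passed, 9.35% higher and 8.08% lower. The 11 were the 4 mitochondrial chaperones, the transporters SLC7A11 and SLC3A2, the enzymes PSAT1 and MTHFD2, the tRNA synthetase GARS, the stress effector DDIT4 and the secreted protein STC2. The median log2 fold change of the 39 was −0.12, against −0.0034 over all genes tested. Of the 39, 16 were lower and 6 higher in each knockdown library than in any TNF-α library, where 16.4% and 17.5% of all genes were. None reached the 2-fold change with an unadjusted p of at most 0.05 by which the study defined differentially expressed genes, as 4.23% of all genes did, and 20 had an unadjusted p under 0.05, as 31.1% of all genes had. ATF3, PSAT1, GARS, HSPD1, HSPE1, HSPA9 and DNAJA3 passed the test in all 18 settings tried. With knockdown library 1 left out 7 genes passed, and with knockdown library 2 left out 9 did, 1 higher and 8 lower.

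**Figure D2:**
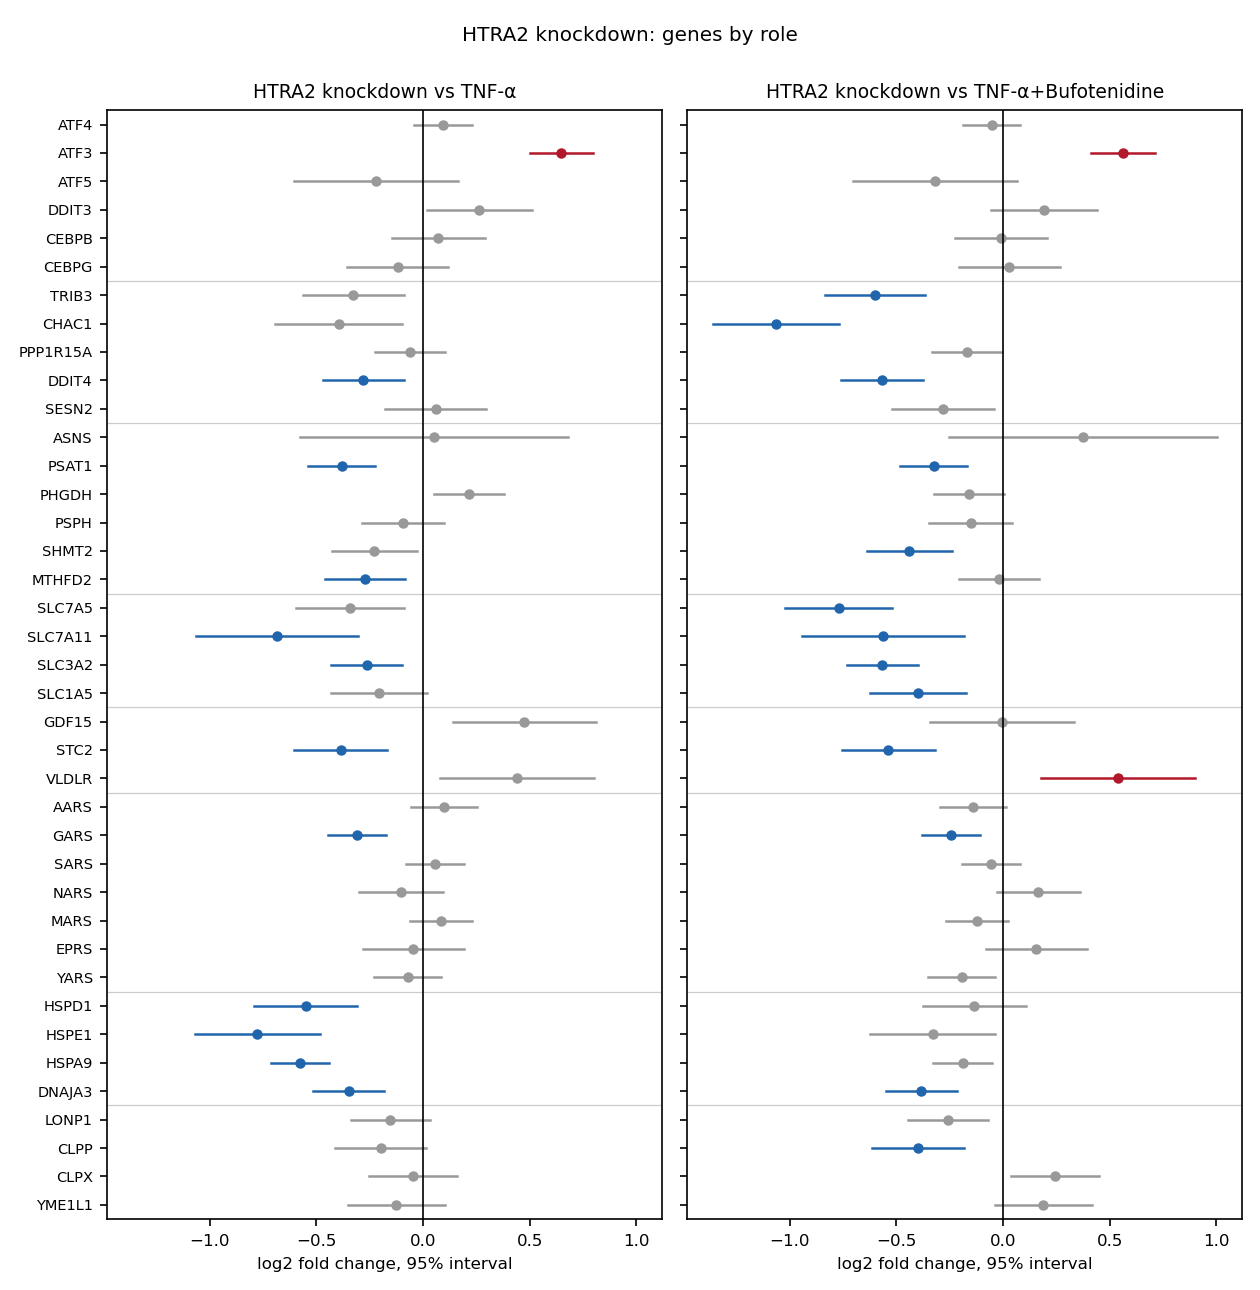
Log2 fold changes (points) with 95% intervals (lines) of the 39 genes in the HTRA2 knockdown libraries against TNF-α (left) and against TNF-α+Bufotenidine (right), ordered by role. Red points were higher and blue points lower at an adjusted p under 0.05, and grey points did not pass. The 4 mitochondrial chaperones are all blue on the left and only DNAJA3 is blue on the right, whereas all 4 amino acid transporters are blue on the right. Both panels share the knockdown libraries.

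All 4 mitochondrial chaperones fell with HTRA2 knockdown. HSPE1, the co-chaperonin that caps the folding chamber, was at 10.02, 15.2 and 10.3 FPKM in the knockdown libraries and 19.4, 19.3 and 21.4 with TNF-α. Every knockdown library was below every TNF-α library, with library 2 closest, and the log2 fold change was −0.78 (SE 0.13, adjusted p = 0.00206). HSPD1, the chaperonin itself, was at 94.1, 126 and 95.3 against 144, 148 and 167, again without overlap and with library 2 the highest of its group, a log2 fold change of −0.55 (SE 0.11, adjusted p = 0.00511). HSPA9 (mortalin), the Hsp70 that pulls proteins through the import channel, was at 30.8, 34.8 and 31.96 against 46.8, 49.5 and 49.3, and its log2 fold change was −0.58 (SE 0.063, adjusted p = 1.0e-04). DNAJA3, a J-domain partner of HSPA9, was at 17.1, 16.1 and 18.4 against 20.9, 23.4 and 21.5, with a log2 fold change of −0.35 (SE 0.077, adjusted p = 0.00841). The median of the 4 was −0.56. Without library 2 the change of HSPE1 was −0.97 and that of HSPD1 −0.69, and all 4 still passed. The genes HSPD1 and HSPE1 overlap by 3464 bases on opposite strands, and whether the counting used strand is not stated. On its own strand HSPE1 also overlaps HSPE1-MOB4, a gene at a mean of 0 FPKM, by 3045 bases. The 17 and 26 named processed copies of HSPD1 and HSPE1 reached at most 4.93 and 3.50 FPKM. The split of reads between all of these is therefore uncertain.

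With Bufotenidine the mean levels of HSPD1, HSPE1 and HSPA9 lay between those of TNF-α and the knockdown. HSPD1 was at 111, 119 and 114 FPKM, HSPE1 at 14.3, 15.0 and 14.7 and HSPA9 at 37.2, 37.5 and 36.5, in each case below all TNF-α libraries and below all medium libraries (130.2 to 155, 19.0 to 23.1 and 40.6 to 45.5). The log2 fold changes against TNF-α were −0.41 for HSPD1 (adjusted p = 0.106), −0.45 for HSPE1 (0.122) and −0.39 for HSPA9 (0.0531), and none passed the test. DNAJA3, at 21.8, 23.5 and 21.9, lay within the range of the medium libraries (23.8, 25.1 and 21.5). In the knockdown against Bufotenidine, 1 of the 4 chaperones passed, DNAJA3 (−0.38, adjusted p = 0.00711). HSPD1 differed by −0.14 (95% interval −0.38 to 0.11), HSPE1 by −0.33 (−0.62 to −0.037) and HSPA9 by −0.19 (−0.33 to −0.052). This turned on library 2, since without it HSPE1 (−0.52, adjusted p = 0.00341) and HSPA9 (−0.24, 0.0315) passed as well and HSPD1 stood at −0.27 (0.0681). These comparisons share libraries and are not independent of each other.

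**Figure D3:**
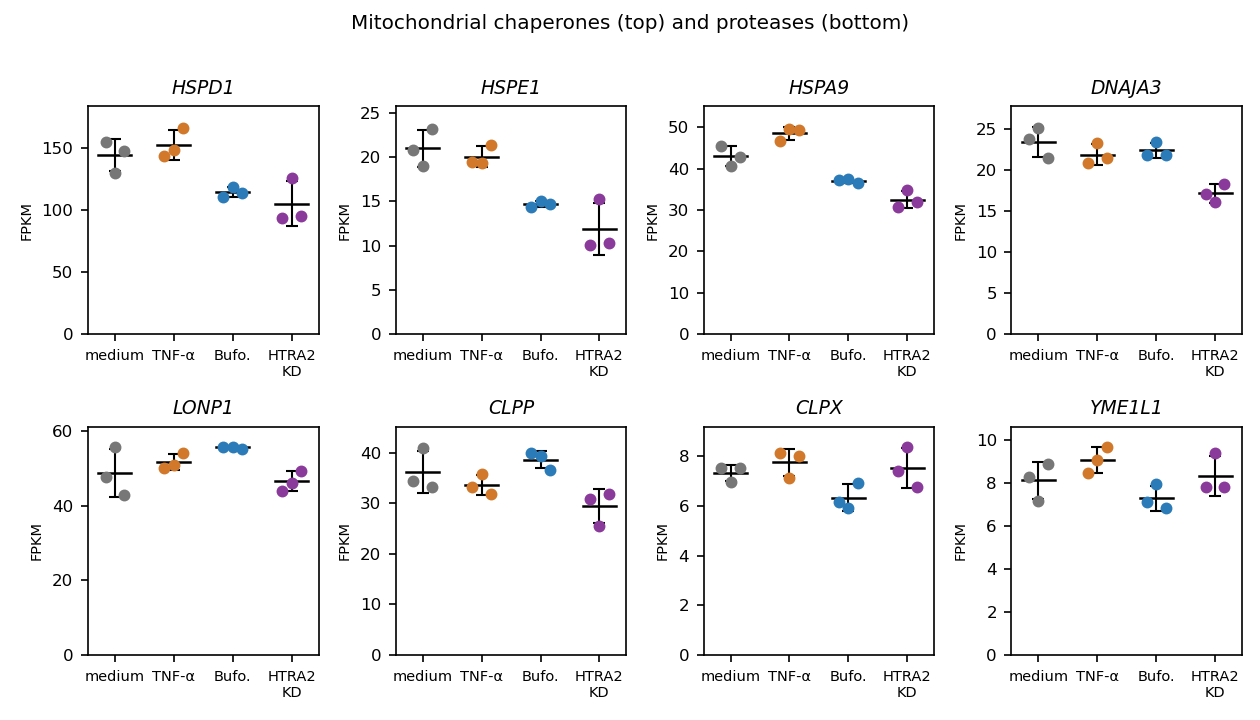
FPKM of the mitochondrial chaperones (top row) and proteases (bottom row) in each library (points), with the group mean (horizontal line) and SD (vertical bar, n = 3) for medium, TNF-α, TNF-α+Bufotenidine (Bufo.) and TNF-α with HTRA2 knockdown (HTRA2 KD). Each vertical axis starts at 0. HSPE1 lies at 19.0 to 23.1 FPKM in medium and with TNF-α, at 14.3 to 15.0 with Bufotenidine and at 10.02 to 15.2 with the knockdown, while LONP1 lies at 42.9 to 55.9 over all 4 groups.

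None of the 4 mitochondrial proteases passed the test against TNF-α. LONP1, the main matrix protease, was at 44.1, 46.2 and 49.4 FPKM with knockdown and 50.1, 51.1 and 54.1 with TNF-α, groups that just failed to overlap (−0.15, 95% interval −0.34 to 0.033, adjusted p = 0.251). CLPP, the proteolytic subunit of the ClpXP complex, was at 30.7, 25.6 and 31.8 against 33.2, 35.8 and 31.8 (−0.20, −0.41 to 0.016, adjusted p = 0.194), with knockdown library 2 lowest, and −0.10 without it. CLPX, its unfoldase, differed by −0.047 (−0.13 without library 2) and YME1L1, a protease of the inner membrane, by −0.12 (−0.21). The median of the 4 was −0.14. Against Bufotenidine, where CLPP stood at 39.9, 39.3 and 36.6, CLPP fell (−0.40, adjusted p = 0.0194), but not without knockdown library 2 (−0.30, adjusted p = 0.0610) or Bufotenidine library 1 or 2.

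Of the 6 tested transcription factors, ATF3 rose with the knockdown and the other 5 did not pass. ATF4, the central activator, was at 167, 177 and 183 FPKM against 161, 157 and 175 with TNF-α, overlapping groups with a log2 fold change of 0.093 (95% interval −0.041 to 0.23, adjusted p = 0.341). DDIT3 (CHOP), which ATF4 induces under lasting stress, was at 7.44, 7.06 and 8.46 against 6.99, 5.64 and 6.46. Its knockdown libraries were all above the TNF-α libraries, but only just above and within the medium range (6.74 to 8.55), and the change of 0.26 did not pass (adjusted p = 0.136). The genes DDIT3 and MARS overlap by 982 bases on opposite strands. ATF5, linked to the mitochondrial unfolded protein response, varied among the knockdown libraries (4.08, 2.85 and 4.91, against 4.07, 5.64 and 4.01), with library 2 lowest, and its change was −0.22 (95% interval −0.61 to 0.16, and −0.012 without library 2). The gene overlaps NUP62 by 1062 bases on the opposite strand. ATF3, a stress-induced factor of the same family, rose to 11.5, 10.9 and 11.73 from 7.54, 6.73 and 7.47, a log2 fold change of 0.65 (SE 0.068, adjusted p = 7.6e-05). ATF3 formed 3 steps over the study, with the medium libraries at 5.42, 5.69 and 5.33 and the TNF-α and Bufotenidine libraries (7.58, 7.62 and 7.84) between medium and knockdown. CEBPB and CEBPG, dimer partners of ATF4, differed by 0.071 and −0.12 and did not pass. NUPR1, too low to be tested, had 22, 38 and 20 reads with knockdown and 8, 2 and 6 with TNF-α, and passed as higher when no filter on low values was applied.

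Among the feedback regulators and effectors, CHAC1, TRIB3 and DDIT4 had their lowest mean with the knockdown and CHAC1 and DDIT4 their highest with Bufotenidine. CHAC1, which degrades glutathione, was at 4.61, 3.26 and 4.92 FPKM with knockdown, 5.34, 5.36 and 5.99 with TNF-α and 8.48, 9.05 and 9.16 with Bufotenidine, 3 groups that did not overlap. Its log2 fold change was −0.40 against TNF-α (adjusted p = 0.0657, and −0.22 with 0.159 without knockdown library 2) and −1.07 against Bufotenidine (SE 0.14, adjusted p = 5.1e-04), the only change of the 39 genes in any of the 4 comparisons that exceeded 2-fold. TRIB3, a pseudokinase that restrains ATF4, was at 13.4, 13.02 and 17.1 with knockdown, 16.7, 18.8 and 18.8 with TNF-α and 22.9, 22.2 and 20.5 with Bufotenidine, where the knockdown overlapped the former and not the latter. The changes were −0.33 (adjusted p = 0.0573) and −0.60 (0.00394). DDIT4 (REDD1), an inhibitor of mTORC1, was at 178, 177 and 178 with knockdown. Its levels were 222, 196 and 229.7 with TNF-α and 272, 251 and 267 with Bufotenidine, and it fell by both comparisons, with −0.28 (adjusted p = 0.0471) and −0.57 (0.00164). The call against TNF-α was close to the threshold and was lost in 10 of 17 other settings, among them the omission of any 1 knockdown library (−0.28, adjusted p = 0.0791 without library 2). SESN2, a leucine sensor that acts on the same kinase, and PPP1R15A (GADD34), the phosphatase subunit that reverses eIF2 phosphorylation, differed from TNF-α by 0.059 (0.18 without knockdown library 2) and −0.06 and did not pass.

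**Figure D4:**
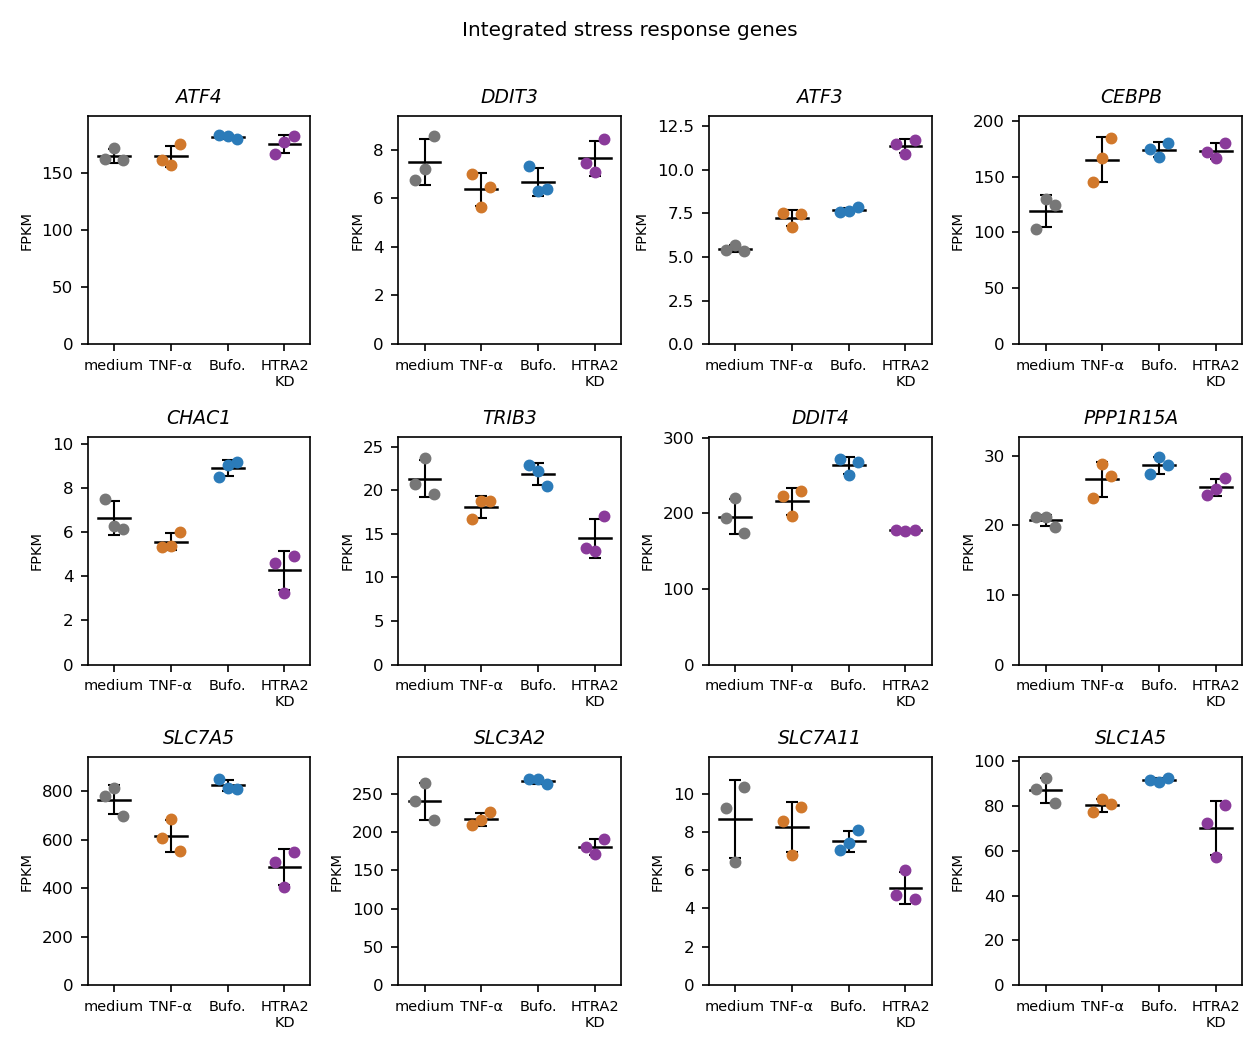
FPKM of 12 integrated stress response genes in each library (points), with the group mean (horizontal line) and SD (vertical bar, n = 3), for medium, TNF-α, TNF-α+Bufotenidine (Bufo.) and TNF-α with HTRA2 knockdown (HTRA2 KD). Each vertical axis starts at 0. ATF4 is close to level, and DDIT3 lies above TNF-α with the knockdown but within the range of medium. ATF3 is highest with the knockdown, and CHAC1, TRIB3, DDIT4, SLC7A5 and SLC3A2 have their lowest mean with the knockdown and stand above TNF-α with Bufotenidine.

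Of the 4 amino acid transporters, SLC7A11 and SLC3A2 fell with the knockdown. SLC7A11, the cystine carrier xCT, was at 4.71, 6.03 and 4.51 FPKM against 8.59, 6.78 and 9.31 with TNF-α, without overlap and with library 2 highest of its group, a log2 fold change of −0.68 (SE 0.17, adjusted p = 0.0181). SLC3A2, the heavy chain shared by SLC7A11 and SLC7A5, was at 180.0, 171 and 190.4 against 209, 215 and 226 (−0.26, SE 0.076, adjusted p = 0.0319). SLC7A5 (LAT1), the leucine carrier, was at 508, 403 and 548 against 607, 683 and 552, with library 2 lowest, and its change of −0.34 did not pass (adjusted p = 0.0625). SLC1A5, a glutamine carrier, was at 72.6, 57.3 and 80.6 against 77.1, 83.0 and 80.8 and overlapped (−0.21, adjusted p = 0.193). Without library 2 the change of SLC3A2 was −0.23 (adjusted p = 0.0764), that of SLC7A5 −0.21 (0.166) and that of SLC1A5 −0.069 (0.548). The call of SLC7A11 was lost without knockdown library 1 or 3 or without TNF-α library 1 or 3, and that of SLC3A2 in 9 of 17 other settings, among them the omission of knockdown library 1 or 2. Against Bufotenidine all 4 carriers fell, and no knockdown library overlapped a Bufotenidine library. SLC7A5 stood at 849, 813 and 809 with Bufotenidine (−0.77, adjusted p = 0.00138) and SLC3A2 at 269.5, 269 and 262 (−0.57, 6.9e-04). SLC1A5 changed by −0.40 (0.0235, and −0.26 with 0.0398 without knockdown library 2) and SLC7A11 by −0.56 (0.049), calls that were both lost when any 1 Bufotenidine library was left out, and that of SLC7A11 also without knockdown library 1 or 3.

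Of the 6 tested enzymes of amino acid and one-carbon metabolism, PSAT1 and MTHFD2 fell with the knockdown. PSAT1, the second enzyme of serine synthesis, was at 69.2, 75.4 and 77.0 FPKM against 94.6, 94.5 and 99.4 with TNF-α, and the medium (84.1 to 98.7) and Bufotenidine (88.9 to 96.3) libraries were also all above the knockdown ones. Its log2 fold change was −0.38 (SE 0.072, adjusted p = 0.00349). MTHFD2, a mitochondrial folate enzyme, was at 25.7, 31.0 and 26.4 against 32.2, 31.95 and 36.1 (−0.27, adjusted p = 0.0478). Library 2 was the highest of the group, and the call was lost in 11 of 17 other settings, among them the omission of knockdown library 1 or 3 or of any 1 TNF-α library. PHGDH, which starts serine synthesis, stood above TNF-α in every knockdown library (59.1, 57.7 and 60.8 against 51.0, 48.4 and 53.7) without passing (0.22, adjusted p = 0.0721), so that neighbouring steps of 1 pathway lay on opposite sides of 0. SHMT2, which passes serine carbon to folate in mitochondria, was at 85.2, 74.3 and 93.0 with knockdown. It differed from TNF-α by −0.23 without passing (adjusted p = 0.108, and −0.14 with 0.287 without knockdown library 2). With Bufotenidine SHMT2 was at 116, 118 and 108, and the knockdown was lower in that comparison (−0.44, adjusted p = 0.00837). PSPH differed from TNF-α by −0.10, and a named pseudogene of it reached 343 reads. ASNS differed by 0.052 with an interval from −0.58 to 0.68, too wide at this depth to show a difference of that size (−0.0090 without knockdown library 2).

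Of the 3 secreted and surface targets, STC2 fell with the knockdown, and GDF15 and VLDLR had higher values that did not pass. STC2 (stanniocalcin 2), a secreted glycoprotein, was at 21.2, 19.0 and 23.3 FPKM with knockdown against 27.1, 28.2 and 27.5 with TNF-α. The log2 fold change was −0.39 (SE 0.099, adjusted p = 0.019), a call lost without knockdown library 1 or 2 (−0.31, 0.0552 without library 2) or TNF-α library 2 or 3. GDF15, a circulating stress cytokine, was at 55.4, 49.95 and 51.8 against 37.7, 29.2 and 48.3, all 3 knockdown libraries being above the TNF-α ones (0.48, adjusted p = 0.0535). It passed as higher in 4 of 18 settings, among them without TNF-α library 3 (0.66, 0.00932), and stood at 0.29 (0.19) without TNF-α library 2. With Bufotenidine GDF15 was at 56.7, 48.7 and 52.5, and the knockdown differed from that by −0.0048 (95% interval −0.34 to 0.33). VLDLR, the very low density lipoprotein receptor, was at 0.988, 1.10 and 0.969 against 0.689, 0.666 and 0.824 (0.44, adjusted p = 0.0914), and it rose against Bufotenidine (0.54, adjusted p = 0.0477), a call made in 6 of 18 settings and lost without any 1 knockdown library (0.49, 0.136 without library 2) and without Bufotenidine library 1 or 2.

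Of the 7 cytosolic tRNA synthetases, GARS (glycine) fell with the knockdown. It was at 43.5, 47.0 and 44.3 FPKM against 53.6, 55.2 and 58.0 with TNF-α, which gave a log2 fold change of −0.31 (SE 0.062, adjusted p = 0.00516). The others (AARS, SARS, NARS, MARS, EPRS and YARS) lay between −0.10 (NARS, −0.19 without knockdown library 2) and 0.10 (AARS) with none passing, and the median of the 7 was −0.045.

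The knockdown libraries differed from the Bufotenidine libraries in 15 of the 39 genes, 2 higher (ATF3 and VLDLR) and 13 lower, where 15.3% of all genes passed, 7.85% higher and 7.43% lower. The 13 were CHAC1, SLC7A5, TRIB3, DDIT4, SLC3A2, SLC7A11, STC2, SHMT2, SLC1A5, CLPP, DNAJA3, PSAT1 and GARS. By role, this took in 4 of 4 transporters, 3 of 5 feedback regulators and effectors and 2 of 6 enzymes, but 1 of 4 chaperones. The median log2 fold change of the 39 was −0.17, against 0.010 over all genes tested. At an unadjusted p under 0.05 there were 22, where 29.7% of all genes were, and 1, CHAC1, also had a 2-fold change, as 3.19% of all genes did. CHAC1, SLC7A5, TRIB3, PHGDH, SHMT2, SLC1A5, GDF15 and VLDLR were chosen for description after their values were seen. The call of GARS was lost without knockdown library 1 and without any 1 Bufotenidine library, and that of PSAT1 without Bufotenidine library 2. Leaving out Bufotenidine library 2 left 9 genes, and leaving out knockdown library 2 left 15 (1 higher and 14 lower).

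TNF-α by itself changed 4 of the 39 genes against medium, all higher, where 4.10% of all genes passed, 3.22% higher and 0.885% lower. STC2 was at 27.1, 28.2 and 27.5 FPKM against 21.97, 18.0 and 17.0 in medium (0.54, SE 0.099, adjusted p = 0.00722). CEBPB (C/EBPβ), which also drives acute phase genes, was at 145, 167 and 184 against 103, 129.9 and 125 (0.47, SE 0.099, adjusted p = 0.0172). ATF3 changed by 0.40 (SE 0.068, adjusted p = 0.00482). PPP1R15A was at 23.9, 28.8 and 27.1 against 21.3, 21.2 and 19.8 (0.35, SE 0.075, adjusted p = 0.0188). In all 4 the groups did not overlap, as in 7 genes higher and 4 lower in all, where 11.1% and 8.74% of all genes were separated so. ATF4 differed by −0.0041 (95% interval −0.14 to 0.13) and DDIT3 by −0.23 (−0.48 to 0.017). None of the transporters, enzymes, synthetases, chaperones or proteases passed, although limma-voom on the reads recovered from the FPKM also called SLC7A5 as lower (adjusted p = 0.00984), and the median of the 39 was 0.029, against −0.0020 over all genes tested. None of the 39 had a 2-fold change, as 2.73% of all genes did, and 9 had an unadjusted p under 0.05, as 14.8% of all genes had. The calls of CEBPB and PPP1R15A were both lost without TNF-α library 2 and without TNF-α library 3, which left 2 genes. That of CEBPB was also lost without medium library 1 and that of PPP1R15A without medium library 3, and no gene passed when only the 6 libraries compared were fitted.

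Bufotenidine changed none of the 39 genes against TNF-α by limma over all 12 libraries, where 0.0387% of all genes (7 genes) passed. At an unadjusted p under 0.05 there were 19, where 20.1% of all genes were, and none had a 2-fold change, as 1.5% of all genes did. Limma-voom on the reads recovered from the FPKM called 6 (CHAC1, SLC7A5, PHGDH and SLC3A2 higher, HSPD1 and HSPA9 lower), and limma on the 6 libraries compared called 9. Of the 39 genes, 18 were higher and 7 lower in every Bufotenidine library than in any TNF-α library, where 16.3% and 15.5% of all genes were. The largest difference was that of CHAC1, at 8.48, 9.05 and 9.16 FPKM against 5.34, 5.36 and 5.99 (0.67, 95% interval 0.37 to 0.97, adjusted p = 0.0844). SLC7A5 differed by 0.43 (adjusted p = 0.106), PHGDH by 0.38 (0.0839) and SLC3A2 by 0.30 (0.0964). SLC7A5 and CHAC1 had stood lower with TNF-α than in medium (779, 814 and 697 for SLC7A5 and 7.52, 6.25 and 6.14 for CHAC1), without passing except for SLC7A5 by limma-voom. ATF4 was at 183, 183 and 179.7, above all TNF-α libraries (0.15, adjusted p = 0.218). The median was 0.11 for the 31 stress response genes and −0.30 for the 8 mitochondrial ones, against 0 over all genes tested. All 5 feedback regulators and effectors had positive values, from 0.11 to 0.67.

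**Figure D5:**
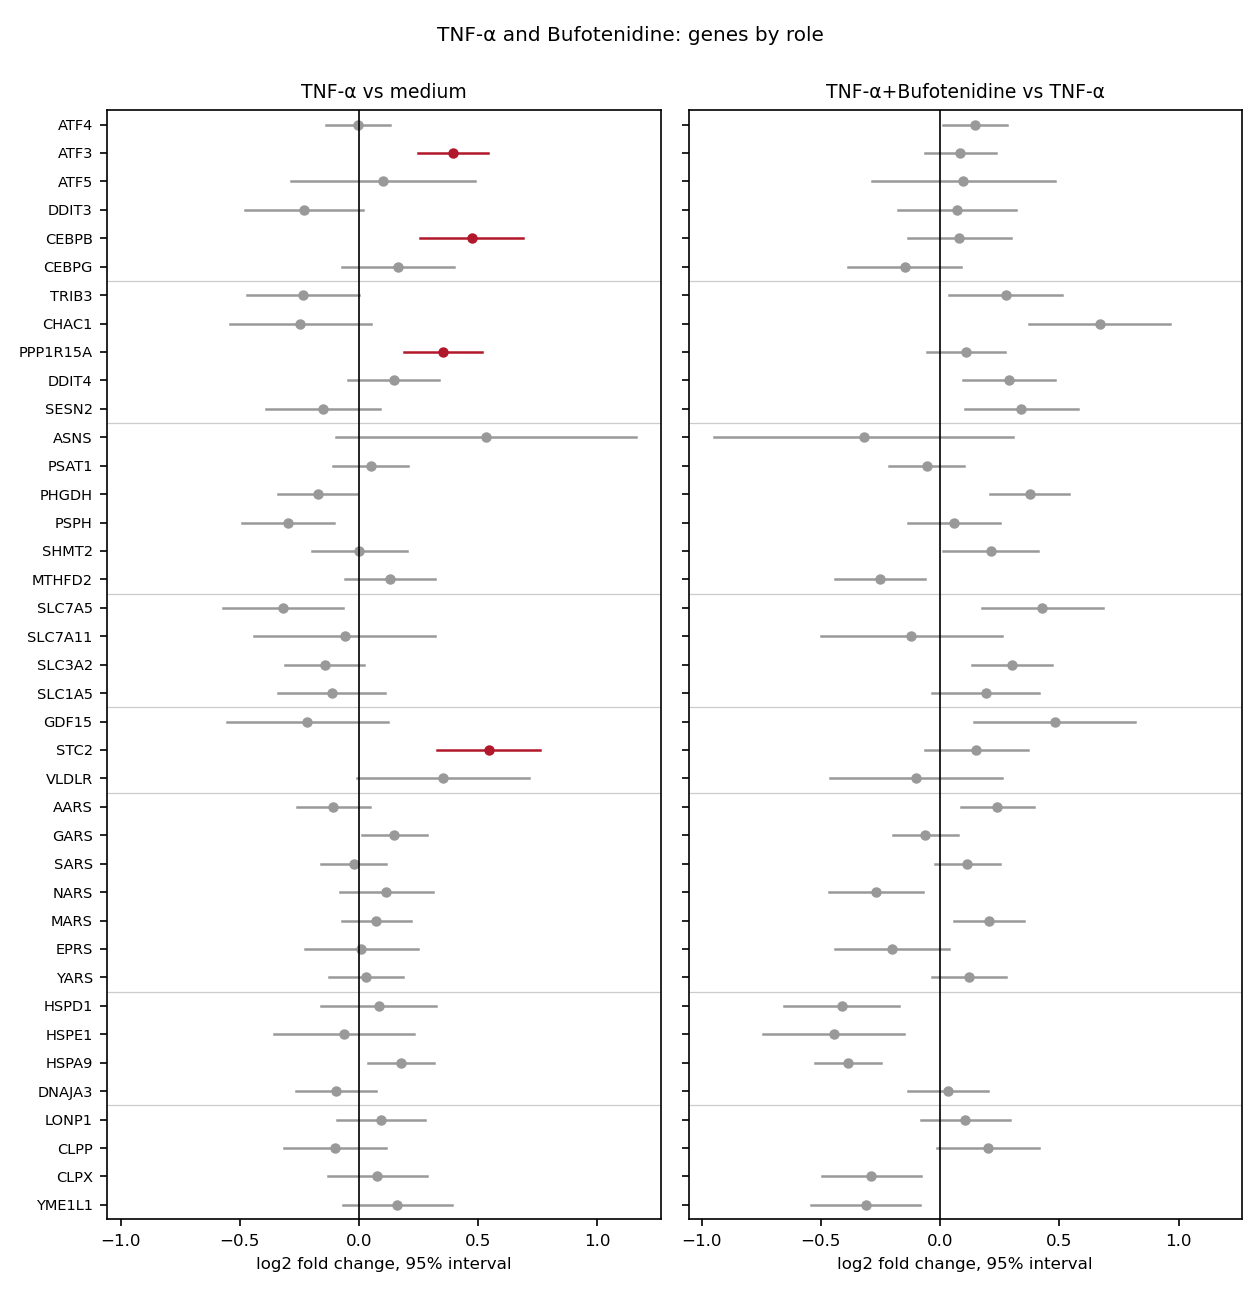
Log2 fold changes (points) with 95% intervals (lines) of the 39 genes for TNF-α against medium (left) and for TNF-α+Bufotenidine against TNF-α (right), ordered by role. Red points were higher at an adjusted p under 0.05 and grey points did not pass. On the left ATF3, CEBPB, PPP1R15A and STC2 are red, and on the right all points are grey, with CHAC1 farthest to the right and HSPE1 farthest to the left. Both panels share the TNF-α libraries.

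Other genes of these pathways were counted in the same fit of the knockdown against TNF-α. Of 18 genes for eIF2, its kinases, its exchange factor eIF2B and the upstream signal, 2 rose and 3 fell, with a median of −0.050, and without knockdown library 2 there were 3 that rose and 3 that fell. With all libraries the 5 that passed were 27.8% of the list, where 17.4% of all genes passed, 9.35% higher and 8.08% lower. The kinases PERK (EIF2AK3, 3.37 to 4.18 FPKM against 2.22 to 2.62) and PKR (EIF2AK2, 11.2 to 13.1 against 7.82 to 8.24) rose by 0.59 (adjusted p = 0.00474) and 0.58 (0.00456). PKR is also an interferon-stimulated gene. GCN2 (EIF2AK4) fell (−0.27, 0.0161), as did EIF2B3 (−0.63, 6.4e-04) and EIF2S1 (−0.48, 0.00633), which encode a subunit of eIF2B and the phosphorylated subunit of eIF2. HRI (EIF2AK1), the kinase on the mitochondrial route, was at 28.7 to 33.4 against 28.9 to 34.7 (−0.054, 95% interval −0.24 to 0.13).

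Of 18 tested further targets of ATF4 and CHOP, 3 rose and none fell. These were 16.7% of the list, near the 17.4% of all genes that passed in either direction. Among all genes tested, 9.35% were higher and 8.08% lower. BBC3 (PUMA), a pro-apoptotic protein that p53 also induces, was at 12.8, 8.75 and 10.7 FPKM against 4.63, 4.65 and 4.79 (1.16, adjusted p = 5.5e-04). KLHL24, a ubiquitin ligase adaptor, changed by 1.01 (0.0012) and TNFRSF10B (DR5), a death receptor, by 0.45 (0.00114). The median of the 18 was 0.0055. Of 13 further cytosolic tRNA synthetases, VARS (−0.66), FARSB (−0.58) and KARS (−0.24) fell and WARS, which interferon also induces, rose (0.47), 30.8% of that list.

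Lower values also reached cytosolic chaperones and further mitochondrial genes, proteases among them. Of 19 further mitochondrial chaperones, proteases and prohibitins, 8 fell and none rose, with a median of −0.28, and 5 fell without knockdown library 2. All genes that fell were 8.08% of those tested. Among them PARL, a rhomboid protease that cleaves HTRA2 during its maturation, was at 1.38, 2.11 and 1.86 FPKM against 2.32, 2.87 and 3.15 (−0.62, adjusted p = 0.0228), IMMP1L, a signal peptidase subunit, changed by −0.39 (0.0188), GRPEL1, the exchange factor of HSPA9, by −0.38 (0.00724) and AFG3L2, an inner membrane protease, by −0.34 (0.033). Of 8 cytosolic heat shock genes, 5 fell and none rose, with a median of −0.51, and without knockdown library 2 there were 5 that fell and 1 that rose. HSP90AA1 was at 195, 259 and 199 against 379.6, 360.0 and 401 (−0.81, adjusted p = 4.3e-04), with knockdown library 2 highest as for HSPD1 and HSPE1. HSPA1A was at 36.7, 35.3 and 47.3 against 61.7, 78.9 and 68.8 (−0.81, 8.8e-04), and its near-identical copy HSPA1B changed by −0.58 (0.00327), the reads of which cannot be assigned with certainty. HSPH1 changed by −0.54 (0.0026) and HSPA8 fell as well (−0.49). Of 10 chaperones and related genes of the endoplasmic reticulum, 2 rose, DNAJB9 (0.67, adjusted p = 0.0482) and HERPUD1 (0.27, 0.0194), and none fell, while 1 rose without knockdown library 2. With all libraries these 2 were 20% of the list, near the 17.4% of all genes that passed in either direction. Of all genes tested, 9.35% were higher and 8.08% lower. HSPA5 (BiP), the main one and, like HSPA8, chosen after its values were seen, differed by −0.064 (95% interval −0.26 to 0.13).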

How the data were processed

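RNA of NCM460 cells was sequenced in 12 libraries, 3 per group, grouped as GEO's labels give them. The values used are FPKM, which the authors deposited for all 12 libraries in 1 table. Submitters' processing notes name CASAVA 1.8, HISAT2 2.0.4, HTSeq 0.9.1 and hg38, without parameters, and the strand setting of the counting is not given in the sources used here. All gene coordinates equalled those of GENCODE 29. Whole reads were recovered for 100% of values (tolerance 0.01 reads), and the FPKM were already scaled by median-of-ratios factors. The table held no columns of other samples. One marker of other cells is not reported here.

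Differences were fitted with limma 3.58.1 (R 4.3.3, trend, 8 residual degrees of freedom) on log2(FPKM + 0.1) over 18079 genes with a mean of at least 0.1 FPKM and all 12 libraries, two-sided, with Benjamini-Hochberg adjustment. The files hold normalized values, so that no count test was the main one. In simulated data with 200 genes changed by 2 on the log2 scale, this fit recovered 198 to 200 for the knockdown against TNF-α (5 runs of 18142 to 18197 genes) and called at most 14 unchanged genes. That change was larger than that of any gene named above, and the simulated spread beyond counting was set equal for all genes. The simulation therefore cannot show how many smaller changes were missed in these libraries, or how many calls were false. An exact permutation test of 3 libraries against 3 cannot go below 0.1. No numbered pairing of libraries was assumed.

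Named in full were ATF4, DDIT3, ATF5, HSPD1, HSPE1, HSPA9, LONP1, CLPP, HTRA2 and the genes passing in the knockdown, TNF-α or Bufotenidine comparisons, and of other lists up to 4 passing genes and the eIF2 kinases. The members and lists were chosen with earlier results of these data known. Promoter windows came from RefSeq. Alternatives were the pseudocount, the filter, the scaling, the samples fitted, the variance prior, a replicate block, voom on recovered reads and each library left out. One of the scalings, by median-of-ratios factors, left the values as they were. That setting is counted among the alternatives but repeats the main fit.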

Additional observations from a re-analysis of the deposited data

How the results depend on the processing

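With 17 alternatives for each comparison, the knockdown against TNF-α gave 9 to 18 genes without leaving out a library, and 7 to 13 with each library left out, the lowest without knockdown library 1. Against Bufotenidine these were 12 to 15, and 9 to 15 with the lowest without Bufotenidine library 2. TNF-α against medium gave 4 genes, but 0 when only the 2 groups were fitted, 2 without a trend in the variance prior, 5 by limma-voom (with SLC7A5 lower) and 2 to 4 with each library left out (2 without TNF-α library 2 or 3). Bufotenidine against TNF-α gave 0 genes, but 3 with a mean of at least 1 FPKM, 9 with only the 2 groups and 6 by limma-voom, and 0 with any library left out. Over all genes its 7 calls became 127, 911 and 236 in those 3 settings, 14 (all higher, against 6 of 7) when scaled by reads on genes, 3 with a pseudocount of 1, 4 (all higher) after quantile normalization, 1 without a trend or with the block, and 1 to 3 without any 1 TNF-α library or without Bufotenidine library 1 or 3. The 742 of TNF-α became 392 with only the 2 groups, the 3152 of the knockdown against TNF-α 2015 without knockdown library 1 and 2062 without TNF-α library 2, and the 2762 against Bufotenidine 1314 to 1770 without Bufotenidine library 1 or 2 or knockdown library 1 or 2. The cause was not tested. In the knockdown against TNF-α, CEBPB ranged from −0.020 (without TNF-α library 1) to 0.15, and PPP1R15A from −0.14 to 0.0002 (without TNF-α library 2), around values that did not pass. HTRA2 ranged from −1.01 to −0.94 with a library left out, stood at −0.90 with a pseudocount of 1, and passed in all 18 settings. Scaling by reads on genes was added after the data were seen. The replicate block, on numbers that the labels share but do not tie to a common culture, gave 9 genes for the knockdown against TNF-α, 12 against Bufotenidine, 4 for TNF-α and 0 for Bufotenidine. Deviations of same-numbered libraries correlated from −0.37 to 0.15, which cannot settle whether they shared a culture, since each deviation is from a mean of only 3 libraries. Depth limits ASNS, NUPR1 and ALDH1L2, at 51 reads or fewer.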
